A study of Homo sapiens with 5 samples.

Results

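The E2F and RB family was examined in RNA-seq libraries of pigment cells in which BPTF, the largest subunit of the chromatin remodelling complex NURF, had been silenced. The family was taken as 10 named genes, the E2F factors E2F1, E2F2, E2F3, E2F4, E2F5, E2F7 and E2F8 and the pocket proteins RB1, RBL1 and RBL2, and all 10 were found among the 31029 genes counted in every library. The genes were taken by name, from a family chosen with earlier results of these data known. The 501Mel group held 2 libraries of 501Mel, a human melanoma line grown in RPMI medium with serum. The Hermes 3A group held 3 libraries of Hermes 3A, an untransformed human melanocyte line. Its medium was also RPMI with serum, with TPA, cholera toxin, stem cell factor and endothelin-1 added. Each line stands for 1 source of cells. All cells of both groups carried a lentivirus expressing shBPTF and had been selected with puromycin. The labels do not say which shBPTF construct a library received. No shControl library was analysed here, so each comparison sets one line against the other after the knockdown and gives no effect of the knockdown. The line, the additions to its culture medium and its table of genes cannot be told apart.

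E2F factors bind DNA, mostly as dimers with a DP protein, upstream of genes for DNA replication and cell division. In resting cells pocket proteins bind the E2F factors and hold these genes down, and cyclin-dependent kinases release them by phosphorylating the pocket proteins as cells enter S phase. E2F1, E2F2 and E2F3 are the activators of the family, E2F4 and E2F5 act mainly as repressors together with RBL1 and RBL2, and E2F7 and E2F8 repress without DP or pocket proteins. Several of the family genes are themselves known targets of E2F. In melanoma the pathway is best known for the loss of CDKN2A, whose product p16 keeps the kinases off RB.

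The words that E2F factors recognise were looked up in the promoters of the family. The windows are those of RefSeq on GRCh38.p14, 300 bases long, from 250 bases before a transcription start to 50 bases from it on. The set of windows used here held 10 for 8 of the genes. E2F5 and E2F8 had none in that set, and its RB1 window belongs to a start inside the gene. The words searched were TTTCCCGC, TTTCGCGC, TTTGCCGC and TTTGGCGC, on both strands. One or more stood in 4 of the 10 windows, against 1164 of all 35116 windows, or 3.31%. The last 100 bases before the start are shown for the 4 genes with a word and for E2F7, a family gene without one, with the words in capitals.
E2F1, chr20:33686386-33686485, minus strand: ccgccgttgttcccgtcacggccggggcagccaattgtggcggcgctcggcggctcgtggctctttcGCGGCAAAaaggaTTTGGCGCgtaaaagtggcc
E2F2, chr1:23531234-23531333, minus strand: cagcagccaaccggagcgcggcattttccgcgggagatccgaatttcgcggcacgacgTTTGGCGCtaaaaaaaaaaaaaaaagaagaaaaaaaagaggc
E2F3, chr6:20401779-20401878, plus strand: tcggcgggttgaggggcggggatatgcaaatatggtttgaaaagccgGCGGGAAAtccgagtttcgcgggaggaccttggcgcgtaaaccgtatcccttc
RBL1, chr20:37095998-37096097, minus strand: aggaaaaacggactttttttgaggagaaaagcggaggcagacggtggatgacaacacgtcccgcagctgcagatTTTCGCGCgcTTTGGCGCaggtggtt
E2F7, chr12:77065570-77065669, minus strand: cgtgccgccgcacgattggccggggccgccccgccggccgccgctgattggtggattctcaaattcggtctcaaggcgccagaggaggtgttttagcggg

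E2F1 and RBL1 each held 2 words, E2F2 and the first E2F3 window 1 each. Counted from the start, the words lay between positions -53 and -9. The windows of E2F4, E2F7 and RBL2, the internal RB1 window and the second E2F3 window held none of these words. A match is a description of the letters, and no binding was measured.

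Depth was similar in the 5 libraries, with 37856675 to 43032311 counts in 501Mel and 30073071 to 41653084 in Hermes 3A, so that 3 counts correspond to 0.0697 to 0.0998 CPM, the count scaled to an equal total in every library. Replicates were compared as separate samples, and the study's methods state at least triplicate experiments without tying a library to an infection or culture. A p then measures only the spread between these samples, which may be technical. The targeted gene BPTF still gave 57.8 to 65.8 CPM in 501Mel and 45.8 to 54.1 CPM in Hermes 3A, a log2 difference of 0.23 with an adjusted p of 0.211 in edgeR's quasi-likelihood test. These levels do not check the knockdown, for want of shControl values. All 7 melanocyte lineage markers (MITF, SOX10, PMEL, MLANA, TYR, TYRP1 and DCT) were counted in every library, with a summed level of 12718 to 19661 CPM in 501Mel and 31651 to 32728 CPM in Hermes 3A. DCT had only 307 to 393 counts in Hermes 3A. Of 4 keratinocyte markers only 2 were listed in 501Mel and 1, TP63, in Hermes 3A, with KRT5 and KRT1 listed in neither. Of 4 immune markers 3 were listed in 501Mel and 4 in Hermes 3A. The keratinocyte and immune markers that were listed each summed to at most 0.599 CPM. Fibroblast markers summed to 1.03 to 7.02 CPM in 501Mel and 70.3 to 188 CPM in Hermes 3A, nearly all of it COL1A2, with DCN at 1 or 2 counts there. PECAM1 was not listed in any library. The other endothelial markers summed to 0.534 to 0.634 CPM against 8.74 to 12.5 CPM, through KDR, with CDH5 at 0 to 4 counts in Hermes 3A. The part of these cell types in the values below was not tested.

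Of the 10 family genes, 6 were higher in 501Mel than in Hermes 3A (E2F1, E2F2, E2F3, E2F4, E2F8 and RBL1), none was lower, and 4 did not pass the test (E2F5, E2F7, RB1 and RBL2). The test was edgeR's quasi-likelihood test across 17918 genes, with a gene called where its p, adjusted by Benjamini-Hochberg over all genes, was below 0.05, and a positive log2 fold change means a higher level in 501Mel. Among all genes tested 24.3% were higher and 24.1% were lower, so that 0 lower family genes of 10 stands beside that background. The median log2 fold change was 0.86 over the family and 0.02 over all genes. In 8 of the 10 genes both 501Mel libraries lay above all 3 Hermes 3A libraries in CPM, as did 38.0% of all genes. The calls that exceeded a log2 fold change of 2 numbered 4 (E2F8, E2F2, E2F1 and RBL1), against 9.80% of all genes.

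**Figure D1:**
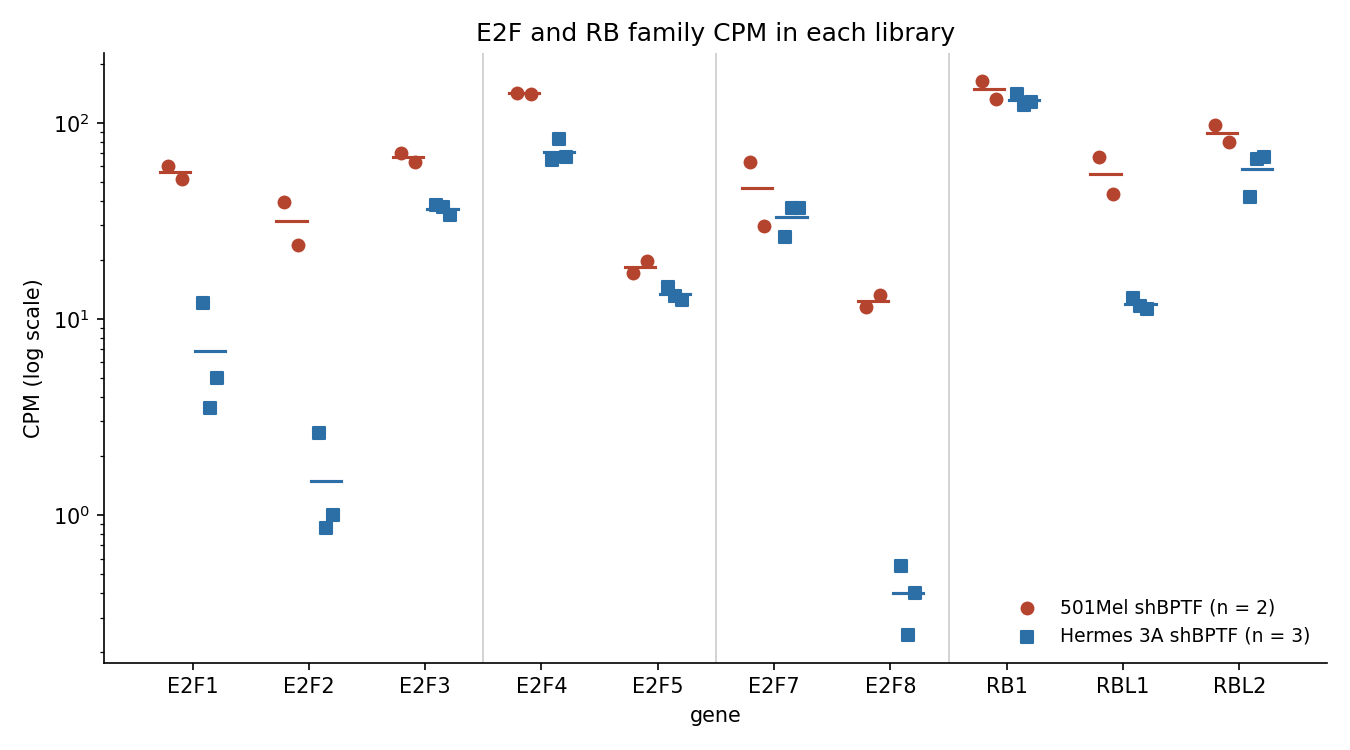
Level of each of the 10 family genes in CPM on a log axis, with 1 point per library and a bar at the mean of each cell line, 501Mel with 2 libraries and Hermes 3A with 3. The points of the lines overlap for E2F7 and RB1 and are apart for the other genes, most widely for E2F1, E2F2, E2F8 and RBL1.

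Among the activators, E2F1 and E2F2 showed wide gaps and E2F3 a narrow one. E2F1 (ENSG00000101412, chromosome 20 of GRCh38 in GENCODE 29, from 33675683 to 33686404, minus strand), the activator best known for driving entry into S phase, had 2595 and 1962 counts in 501Mel and 505, 143 and 151 in Hermes 3A. In CPM these were 60.3 and 51.8 against 12.1, 3.50 and 5.02. Both 501Mel libraries were above every Hermes 3A library, and Hermes 3A replicate 1 stood above the other two. The means were 56.1 CPM ± 5.99 (SD, n = 2) and 6.88 CPM ± 4.60 (SD, n = 3), and the fold difference was 7.64 with a 95% interval from 3.37 to 17.3. The log2 fold change was 2.93 with an SE of 0.502 and an adjusted p of 0.00311 in edgeR. E2F2 (ENSG00000007968, chromosome 1, from 23506430 to 23531220, minus strand), a close relative of E2F1, had 1695 and 902 counts against 109, 35 and 30. The levels were 39.4 and 23.8 CPM against 2.62, 0.856 and 0.998 CPM, again without overlap and with Hermes 3A replicate 1 the highest of its group. E2F2 was 19.8-fold higher in 501Mel (95% interval 8.31 to 47.1, adjusted p = 0.000819 in edgeR), and its log2 fold change was 4.31. Without Hermes 3A replicate 1 the log2 fold changes were 3.67 for E2F1 and 5.04 for E2F2.

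E2F3 (ENSG00000112242, chromosome 6, from 20401906 to 20493715, plus strand), the activator with alternative promoters that give a long and a short protein, had 3022 and 2383 counts against 1589, 1530 and 1017. Its levels were 70.2 and 62.9 CPM in 501Mel and 38.1, 37.4 and 33.8 CPM in Hermes 3A, without overlap and with close replicates. The fold difference was 1.74 (95% interval 1.38 to 2.21, adjusted p = 0.00388 in edgeR). The intervals of E2F3 and of E2F1 and E2F2 do not overlap, although the difference between genes was not itself tested. Its pseudogene E2F3P2 had 2 to 13 counts per library.

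Of the canonical repressors E2F4 passed the test and E2F5 did not. E2F4 (ENSG00000205250, chromosome 16, from 67192169 to 67198918, plus strand), the main partner of pocket proteins in resting cells, had 6107 and 5321 counts against 2686, 3374 and 2005. At 142 and 141 CPM against 64.5, 82.6 and 66.7 CPM it was 1.90-fold higher in 501Mel (95% interval 1.52 to 2.38, adjusted p = 0.00179 in edgeR), without overlap. E2F5 (ENSG00000133740, chromosome 8, from 85177225 to 85217158, plus strand), its nearest relative, had 735 and 747 counts against 605, 534 and 376. Its 17.1 and 19.7 CPM stood above 14.5, 13.1 and 12.5 CPM, and the fold difference of 1.32 had an interval from 0.938 to 1.84 (adjusted p = 0.153 in edgeR). The groups did not overlap for E2F5, yet the test was not passed. E2F5 shares 969 exon bases with C8orf59 on the opposite strand, and the strand setting of the counting is not given in the sources used here, so reads of the pair cannot be told apart.

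The atypical repressors, both known to hold down E2F1, gave unlike values. E2F8 (ENSG00000129173, chromosome 11, from 19224063 to 19241620, minus strand) had 494 and 500 counts in 501Mel and 23, 10 and 12 in Hermes 3A. In CPM these were 11.5 and 13.2 against 0.552, 0.245 and 0.399. The 501Mel replicates were close to each other and far above all Hermes 3A libraries. With a log2 fold change of 4.87 (SE 0.425, fold 29.2, 95% interval 14.6 to 58.4, adjusted p = 0.000202 in edgeR), E2F8 had the largest fold change of the 10 genes, and 2.09% of all genes tested ranked above it. E2F7 (ENSG00000165891, chromosome 12, from 77021247 to 77065580, minus strand) had 2732 and 1126 counts against 1094, 1502 and 1101. Its levels were 63.5 and 29.7 CPM against 26.3, 36.8 and 36.6 CPM. The second 501Mel library lay within the Hermes 3A range, and the first lay above it. The log2 fold change was 0.43 (SE 0.306, adjusted p = 0.283 in edgeR). Without 501Mel replicate 1 it was -0.21 (adjusted p = 0.533), and without 501Mel replicate 2 it was 0.85 (adjusted p = 0.0273), so the E2F7 value rests on which 501Mel library is read.

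Among the pocket proteins only RBL1 passed the test. RBL1 (ENSG00000080839, chromosome 20, from 36996349 to 37095995, minus strand) encodes p107, the pocket protein whose level is known to rise with proliferation. It had 2872 and 1641 counts in 501Mel and 534, 475 and 337 in Hermes 3A. At 66.7 and 43.3 CPM against 12.8, 11.6 and 11.2 CPM the groups were well apart, with Hermes 3A replicates nearly equal. The log2 fold change was 2.14 (SE 0.219, fold 4.41, 95% interval 3.09 to 6.30, adjusted p = 0.000379 in edgeR). RBL2 (ENSG00000103479, chromosome 16, from 53433977 to 53491649, plus strand) encodes p130, the pocket protein most abundant in resting cells. With 4190 and 3014 counts against 1741, 2677 and 2006, or 97.4 and 79.6 CPM against 41.8, 65.5 and 66.7 CPM, it was higher in both 501Mel libraries without passing the test (fold 1.47, 95% interval 1.05 to 2.05, adjusted p = 0.0602 in edgeR). RBL2 shares 610 exon bases with AKTIP on the opposite strand, a gene of 53 to 139 counts. RB1 (ENSG00000139687, chromosome 13, from 48303726 to 48599436, plus strand), the retinoblastoma gene, had 7060 and 5001 counts against 5870, 5029 and 3841. Its levels of 164 and 132 CPM overlapped those of 141, 123 and 128 CPM, and the fold of 1.08 had an interval from 0.836 to 1.40 (adjusted p = 0.584 in edgeR).

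**Figure D2:**
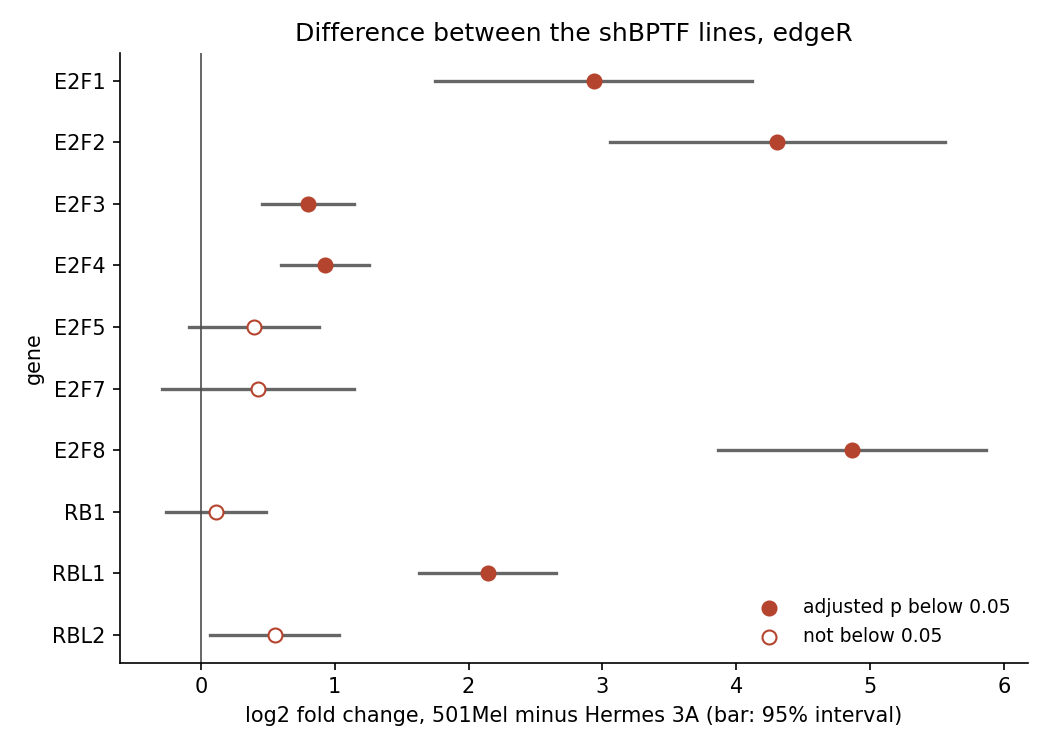
Log2 fold change of each family gene, 501Mel over Hermes 3A after shBPTF, with bars for the 95% interval of the edgeR fit, a vertical line at 0, filled points for an adjusted p below 0.05 and open points for the others. E2F8, E2F2, E2F1 and RBL1 lie above 2, and the intervals of E2F5, E2F7 and RB1 reach 0.

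Levels were set side by side between genes only per length, as CPM scaled by edgeR's TMM factors and divided by the kb of all exons of the gene in GENCODE 29. In 501Mel the order began with E2F4 at 38.4 CPM per kb, clear of RB1 at 22.3 and E2F1 at 21.8, which overlapped each other. E2F3 at 12.5, RBL2 at 11.8, RBL1 at 8.98, E2F7 at 7.18 and E2F2 at 5.63 followed, each overlapping the next between replicates. E2F5 at 3.03 and E2F8 at 2.91 closed the order and overlapped. In Hermes 3A RB1 at 20.6 and E2F4 at 20.2 led and overlapped. RBL2 at 8.02 and E2F3 at 7.20 came next, also overlapping, and then E2F7 at 5.34, E2F1 at 2.85, E2F5 at 2.30 and RBL1 at 2.04, each overlapping its neighbour in that order. E2F2 at 0.283 and E2F8 at 0.0990 were last, each apart from the gene before it. The position of E2F1 thus went from rank 3 in 501Mel to rank 6 in Hermes 3A. The order depends on the length used. With the median transcript length RB1 led in 501Mel at 219 CPM per kb, and E2F1 had rank 6 in 501Mel and rank 8 in Hermes 3A.

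The make-up of the E2F group was then read within each library, where the scaling of the library cancels. The activators E2F1 to E2F3 together took 44.8% and 42.5% of the summed E2F level per kb in 501Mel and 33.9%, 22.0% and 24.7% in Hermes 3A. E2F1 alone took 24.0% and 23.6% against 12.9%, 3.50% and 5.67%. E2F4 held the largest share in every library, 39.5% and 44.7% against 48.1%, 57.7% and 52.6%. E2F3 took 13.6% and 13.9% in 501Mel and 18.1% to 19.7% in Hermes 3A, a larger share of a smaller sum. E2F8 went from 2.77% and 3.64% to 0.148% to 0.356%. The shares of E2F1, E2F2 and E2F8 were higher in 501Mel and those of E2F3, E2F4, E2F5 and E2F7 lower, without overlap between the lines. These shares depend on the length. With the median transcript length the activators took 17.5% and 15.8% in 501Mel and 11.0%, 6.45% and 7.40% in Hermes 3A, and E2F1 7.86% and 7.57% against 3.70%, 0.888% and 1.48%. At that length the shares of E2F4 and E2F7 overlapped between the lines, and those of the other 5 did not. Among the pocket proteins RBL1 took 22.4% and 18.8% of the summed level in 501Mel and 6.11% to 7.25% in Hermes 3A, and RB1 50.9% and 53.0% against 63.6% to 73.5%. RBL2 held 26.6% and 28.2% against 19.2%, 29.9% and 29.6%, which overlapped.

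**Figure D3:**
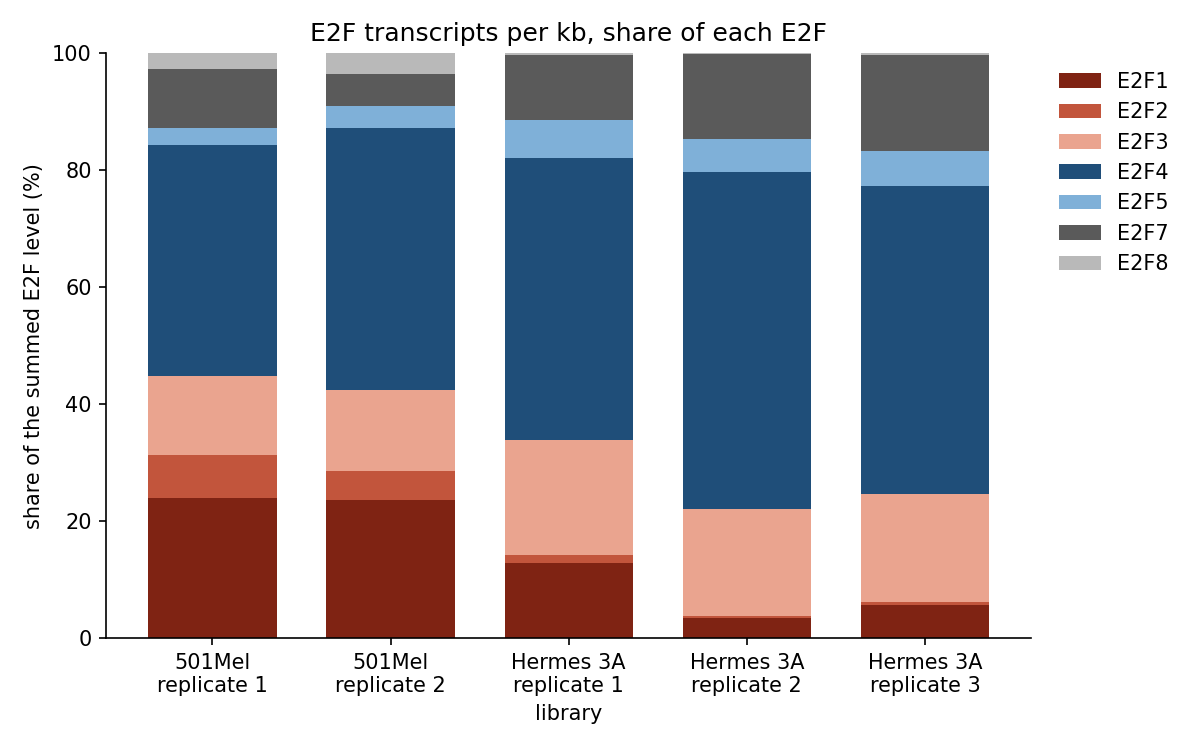
Share of the summed E2F level per kb of exon, in percent, with 1 stacked bar per library of 501Mel and Hermes 3A. The sum covers the 7 E2F genes of the family and leaves out E2F6. E2F1 takes 24.0% and 23.6% in 501Mel and 3.50% to 12.9% in Hermes 3A, and E2F4 is the largest share in all 5 libraries.

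Ratios of relatives within a library, per kb of exon, were read for 4 pairs chosen with the levels known. E2F7 exceeded E2F8 by 3.63-fold and 1.48-fold in 501Mel and by 31.2-fold, 98.7-fold and 60.3-fold in Hermes 3A. E2F4 exceeded E2F1 by 1.64-fold and 1.90-fold against 3.72-fold, 16.5-fold and 9.28-fold. RB1 exceeded RBL1 by 2.27-fold and 2.81-fold against 10.1-fold, 9.77-fold and 10.5-fold, the closest replicates of the 4 pairs in Hermes 3A but not in 501Mel. RBL2 exceeded RBL1 by 1.19-fold and 1.49-fold against 2.65-fold, 4.58-fold and 4.84-fold. All 4 ratios were lower in both 501Mel libraries than in every Hermes 3A library. Each denominator had already been called higher in 501Mel with a larger fold change than its numerator, so this direction restates those calls. The two-sided exact permutation test gave p = 0.2 for each, adjusted p = 0.2 over the 4, which is the smallest p that 2 against 3 libraries allow.

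The Hermes 3A libraries differed among themselves in part of the family. Replicate 1 stood 2.98-fold above the mean of the other 2 for E2F1, 2.81-fold for E2F2 and 1.63-fold for E2F8. It stood 1.14-fold above for E2F3 and 1.19-fold for RBL1, and at 0.763-fold for E2F7 and 0.674-fold for RBL2. The SD of log2 CPM within Hermes 3A was 0.97 for E2F1, above that of 93.9% of all genes tested, and 0.90 for E2F2, above 92.4%, with a median of 0.26 over all genes. Along with these, the G2/M genes listed further on stood 2.57-fold above the other 2 replicates in the median, with 28 of 28 above, and the G1/S genes 1.22-fold, with 30 of 35 above, against 0.997-fold over all genes tested. Replicate 1 had the highest E2F1, E2F2 and E2F8 and the highest summed level of the G2/M genes. Replicates 2 and 3 differed by 35 against 30 counts for E2F2 and 10 against 12 for E2F8, within counting error. They were not alike throughout. E2F1 was at 3.50 CPM in replicate 2 and 5.02 CPM in replicate 3, and the G2/M sums were 211 and 361 CPM. The part of the G2/M genes in these values was not tested. In 501Mel replicate 1 exceeded replicate 2 by 2.09-fold for E2F7, 1.62-fold for E2F2 and 1.51-fold for RBL1. Without Hermes 3A replicate 1 E2F1, E2F2 and E2F8 passed the test between the lines, E2F8 with a log2 fold change of 5.22.

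**Figure D4:**
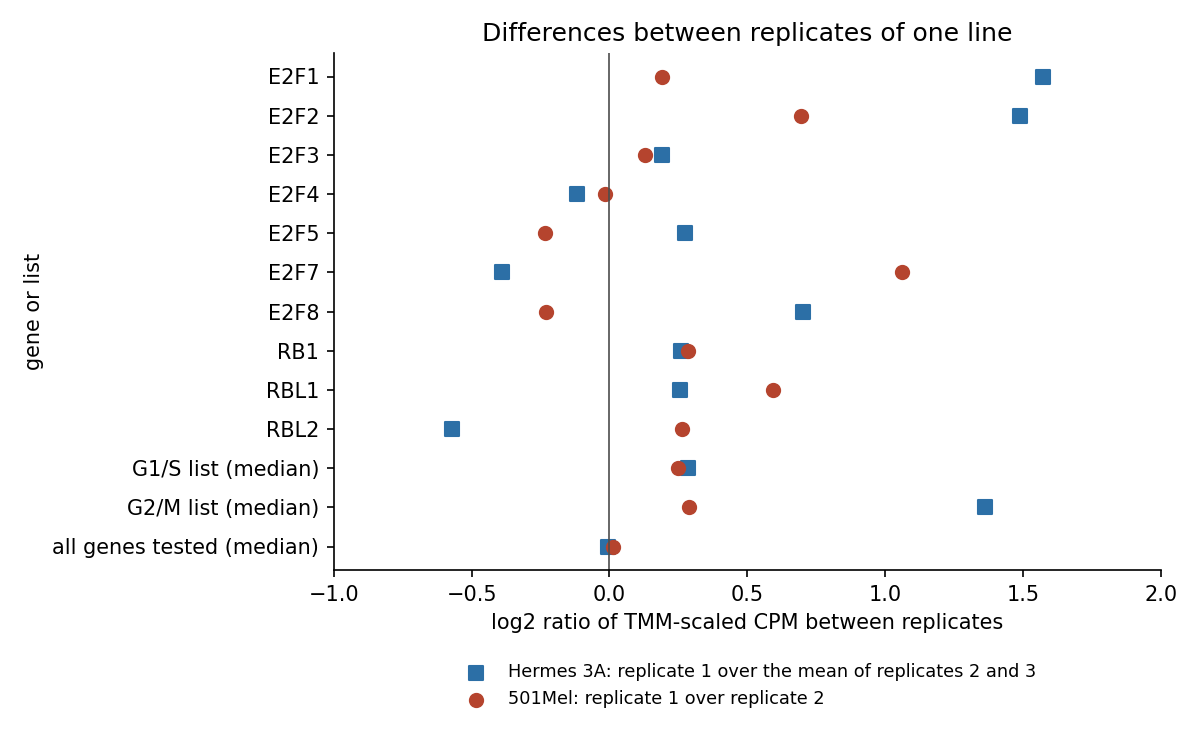
Log2 difference between replicates for each family gene and for the medians of the G1/S list, the G2/M list and all genes tested, as Hermes 3A replicate 1 over the mean of replicates 2 and 3 and as 501Mel replicate 1 over replicate 2. Among the family genes E2F1 and E2F2 in Hermes 3A (1.57 and 1.49) and E2F7 in 501Mel (1.06) lie farthest from 0.

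The partners of the E2F factors were higher in 501Mel as well. TFDP1 and TFDP2, the DP proteins that dimerize with E2F1 to E2F6, had log2 fold changes of 1.07 (adjusted p = 0.00175 in edgeR) and 0.92 (adjusted p = 0.00324). E2F6, a repressor that works without pocket proteins, was at 60.6 CPM ± 9.44 (SD, n = 2) against 33.8 CPM ± 1.40 (SD, n = 3), a log2 fold change of 0.78 (adjusted p = 0.00630 in edgeR). TFDP3 was not tested, with 1 count in a single Hermes 3A library and 0 in the other 4. All 3 genes tested in this group were thus higher, beside 24.3% of all genes.

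The MuvB core joins E2F4 and a pocket protein in resting cells to form the DREAM repressor, and later joins B-MYB and FOXM1 to activate mitotic genes. Of 7 genes tested in this group 5 were higher in 501Mel, none was lower and 2 did not pass, beside 24.3% higher and 24.1% lower among all genes, with a median log2 fold change of 1.45. MYBL2, which encodes B-MYB, was at 144 CPM ± 54.6 (SD, n = 2) against 3.51 CPM ± 2.74 (SD, n = 3), a log2 fold change of 5.27 (adjusted p = 0.00128 in edgeR). FOXM1, a transcription factor of mitotic genes, was at 104 CPM ± 17.7 (SD, n = 2) against 19.1 CPM ± 14.5 (SD, n = 3), a log2 fold change of 2.36 (adjusted p = 0.0133 in edgeR), and its call was lost without 501Mel replicate 1 (adjusted p = 0.0596) and without Hermes 3A replicate 3 (adjusted p = 0.0502). Without Hermes 3A replicate 1 the log2 fold changes of MYBL2 and FOXM1 were 6.06 and 3.19. FOXM1 shares 781 exon bases with ITFG2 on the opposite strand, a gene of 574 to 1152 counts. Of the MuvB core, LIN9 had a log2 fold change of 2.41 (adjusted p = 0.000434 in edgeR) and RBBP4, also a NURF subunit, one of 0.98 (adjusted p = 0.00156), while LIN52 at 0.43 (adjusted p = 0.204) and LIN54 at 0.45 (adjusted p = 0.0971) did not pass. RBBP4 shares 1706 exon bases with SYNC on the opposite strand, at 925 to 2464 counts. MYBL1, the relative of B-MYB named A-MYB, had a log2 fold change of 1.45 (adjusted p = 0.00285 in edgeR). LIN37 was not among the genes analysed here.

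The cyclins and kinases that phosphorylate pocket proteins gave 3 of 8 higher in 501Mel, 3 lower and 2 not past the test, beside 24.3% higher and 24.1% lower among all genes, and a median log2 fold change of 0.05. CCND1, the cyclin D1 gene, was at 360 CPM ± 46.7 (SD, n = 2) against 1394 CPM ± 480 (SD, n = 3), a log2 fold change of -2.03 (adjusted p = 0.00261 in edgeR). CCND2 had 1 and 2 counts in 501Mel and 29, 19 and 6 in Hermes 3A, too few for a fold to be given, and its call was lost without either 501Mel library (adjusted p = 0.0974 and 0.0535 in edgeR). CCNE2, which encodes an E-type cyclin of the G1/S transition, had 590 and 212 counts against 40, 61 and 45, a log2 fold change of 2.81 (adjusted p = 0.00229 in edgeR). Without 501Mel replicate 1 its log2 fold change was 2.03. CCNE2 shares 1629 exon bases with the opposite-strand gene INTS8, which had 1452 to 2813 counts, more than CCNE2 in every library. Reads of this pair cannot be told apart. CDK6, a cyclin D partner, was at 61.4 CPM ± 41.7 (SD, n = 2) against 19.6 CPM ± 3.50 (SD, n = 3), and its log2 fold change of 1.58 (adjusted p = 0.0146 in edgeR) dropped to 0.64 (adjusted p = 0.116) without 501Mel replicate 1. The other calls of this list were CCNE1 at 0.63 (adjusted p = 0.0490 in edgeR, close to the threshold) and CDK4 at -0.77 (adjusted p = 0.0197). CCND3 and CDK2 did not pass, and these 4 genes were named after their values were seen. CDK4 shares 1369 exon bases with TSPAN31 on the opposite strand, at 744 to 1568 counts, and CDK2 shares 89 with PMEL, at 216131 to 768471 counts, so that reads of these pairs cannot be told apart. The number called in the list was 6 with all libraries, 2 without 501Mel replicate 1 and 3 without 501Mel replicate 2.

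Of the 7 inhibitors of those kinases 1 was higher in 501Mel, 3 were lower and 3 did not pass, beside 24.3% higher and 24.1% lower among all genes, with a median log2 fold change of -0.64. CDKN1A, which encodes p21 and is a target of p53, had 0 counts in both 501Mel libraries and 33363, 31620 and 34023 counts in Hermes 3A, or 902 CPM ± 199 (SD, n = 3). Against a floor of 3 counts per library, which covers counting error only, its counted level was at least 11383-fold lower in 501Mel. The 501Mel files hold 19 genes at 0 in both libraries that have at least 500 counts in every Hermes 3A library, and 4 genes show the reverse. The tables of the lines differ in their gene annotation, and whether a 0 reflects the cells or the counting was not tested. The call of CDKN1A as lower and its part in the median carry the same limit. CDKN2A, which encodes p16 and p14ARF, had a log2 fold change of -0.93 (adjusted p = 0.00437 in edgeR), at 70.4 CPM ± 11.4 (SD, n = 2) against 128 CPM ± 12.8 (SD, n = 3). CDKN1C, which encodes p57, was at 0.947 CPM ± 0.666 (SD, n = 2) against 9.73 CPM ± 3.41 (SD, n = 3), a log2 fold change of -3.41 (adjusted p = 0.00269 in edgeR), which was -4.39 without 501Mel replicate 1. CDKN2C, which encodes p18 and is itself known as an E2F target, had a log2 fold change of 1.91 (adjusted p = 0.00125 in edgeR).

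The corepressors that pocket proteins recruit were higher in 6 of 10 cases and lower in none, beside 24.3% and 24.1% of all genes, with a median log2 fold change of 0.67. SUV39H2 and SUV39H1, which methylate histone H3, had log2 fold changes of 2.27 (adjusted p = 0.000252 in edgeR) and 2.00 (adjusted p = 0.000345). The histone deacetylase HDAC2 had one of 0.82 (adjusted p = 0.00385 in edgeR), and HDAC1 one of 0.53 (adjusted p = 0.0340), a call lost in 6 of 11 alternatives. The 4 genes that did not pass were KDM5A, SIN3B, ARID4A and SMARCA2, named after their values were seen.

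Genes known as targets of E2F at the G1/S transition were higher in 501Mel in 34 of 35 cases, beside 24.3% of all genes, with a median log2 fold change of 2.36, and UNG, at -0.20 (adjusted p = 0.207 in edgeR), was the exception. CDC45 and GINS1, parts of the replicative helicase, had log2 fold changes of 4.13 (adjusted p = 0.000821 in edgeR) and 3.91 (adjusted p = 3.21e-05). PCNA, the sliding clamp of DNA polymerase, had 0.81 (adjusted p = 0.00650) and SLBP, which binds histone mRNA, 0.68 (adjusted p = 0.00761 in edgeR), a call lost without 501Mel replicate 1 (adjusted p = 0.0536), where 32 genes of the list were called. Summed over the list, the level was 4654 and 3878 CPM in 501Mel and 1076, 1008 and 1024 CPM in Hermes 3A. One or more of the E2F words stood in 19 of the 46 promoter windows of the list, beside 3.31% of all windows.

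Genes of mitosis that MuvB, B-MYB and FOXM1 control were higher in 28 of 28 cases, beside the same 24.3%, with a median log2 fold change of 3.21. Calls numbered 27 without 501Mel replicate 1 and 26 without 501Mel replicate 2 or Hermes 3A replicate 3. TOP2A, the topoisomerase of dividing cells, had a log2 fold change of 4.50 (adjusted p = 0.000830 in edgeR), and HMMR, which encodes a spindle protein, 3.96 (adjusted p = 0.00129), or 4.58 without Hermes 3A replicate 1. ECT2, needed for cytokinesis, had 2.12 (adjusted p = 0.000805) and CKS2, a binding partner of cyclin-dependent kinases, 0.95 (adjusted p = 0.0118 in edgeR), a call lost without 501Mel replicate 2 (adjusted p = 0.0653) and without Hermes 3A replicate 3 (adjusted p = 0.0566). The summed level was 3879 and 3067 CPM in 501Mel and 658, 211 and 361 CPM in Hermes 3A, so that Hermes 3A replicate 1, the library with the highest E2F1 and E2F2 of its line, also had the highest sum. The E2F words stood in 2 of the 29 promoter windows of this list, beside 3.31% of all windows, too few matches to set the list apart. In bulk RNA, fewer dividing cells and less RNA per cell cannot be told apart.

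**Figure D5:**
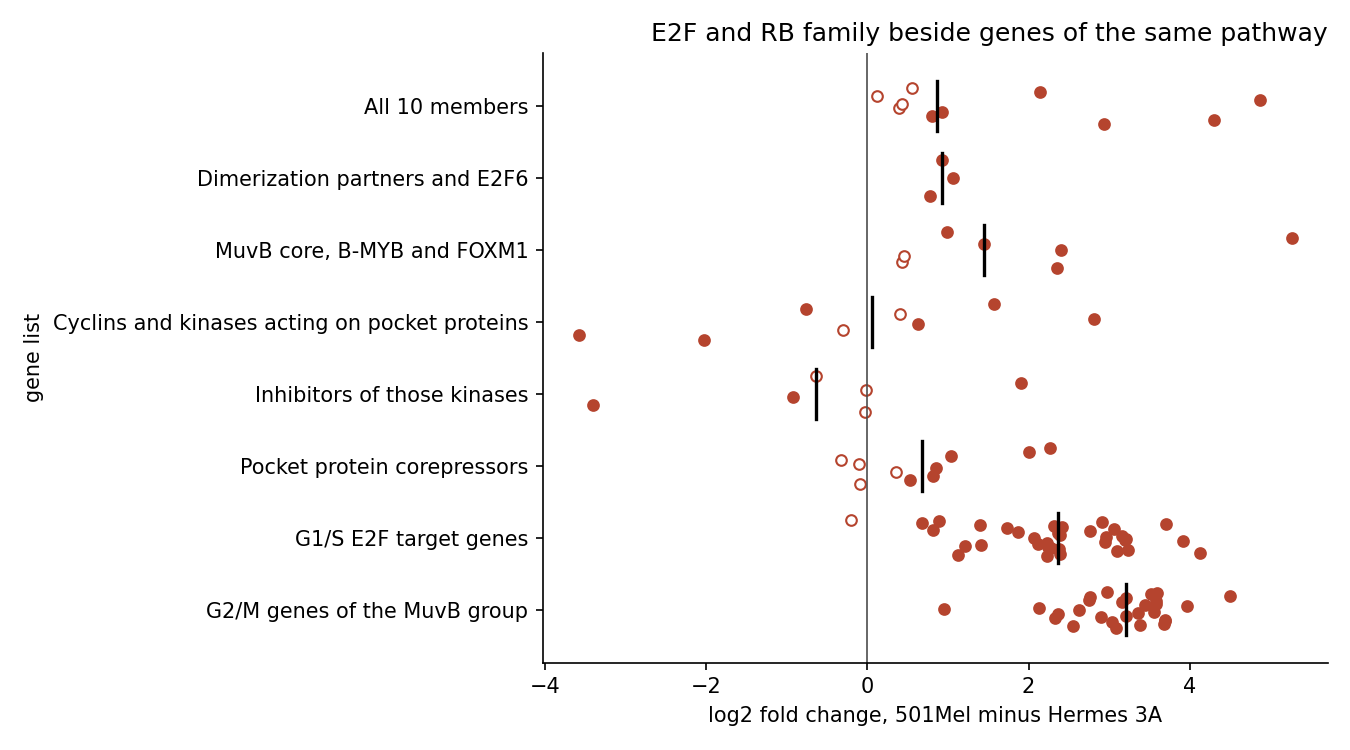
Log2 fold change, 501Mel over Hermes 3A after shBPTF, of each tested gene in the family and in the lists of E2F partners, MuvB and its activators, cyclins and kinases, kinase inhibitors, corepressors, G1/S targets and G2/M genes, with filled points for an adjusted p below 0.05, open points for the others and the median of each list as a bar. CDKN1A, at 0 counts in 501Mel, lies off the scale and is counted in the median of the inhibitors (-0.64), and the G2/M genes all lie above 0.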

How the data were processed

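RNA-seq libraries were made from rRNA-depleted total RNA and normalized with duplex-specific nuclease, which lowers abundant transcripts and can narrow differences between high and low genes. The authors deposited read counts per gene for each library, as unscaled whole numbers keyed by Ensembl identifier. The submitters' processing notes name CASAVA 1.8, TopHat 1.4.1, Bowtie 0.12.7 and hg19, and the counting program, annotation and strand setting are not given in the sources used here. The 501Mel tables list 37259 genes and those of Hermes 3A list 34033. The 31029 shared genes hold at least 99.3% of the counts of each library, and 1617 Hermes 3A identifiers are above the highest of 501Mel, so the annotations differ. Counts of replicates differed with a chi-square of 21.5 or more per gene, and no 2 libraries were counted as 1 sample.

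Samples were grouped by cell line from their titles. Counts were tested with edgeR 4.0.16 (quasi-likelihood, TMM, filterByExpr) in R 4.3.3, with no covariate, which left 17918 genes, and the same steps were tested on simulated data. Alternatives were DESeq2 1.42.0, other scalings and filters, a replicate block and leaving out each library. The longest transcript length was added after seeing the data. Intervals are 95%, and floors of 3 counts cover counting error only. Names, coordinates and exon lengths are those of GENCODE 29 on GRCh38, found for 94.5% of the shared genes. Permutation tests used scipy 1.17.1.

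The family and the pathway lists were chosen with earlier results of these data known. Named genes were the 10 family genes, all genes of the partner and MuvB lists, the 2 largest and the 2 smallest log2 fold changes among the calls of each other list, and BPTF. No set test was run.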

Additional observations from a re-analysis of the deposited data

How the results depend on the processing

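E2F1, E2F2, E2F3, E2F4, E2F8 and RBL1 kept their direction and passed the test in all 11 alternatives, with adjusted p of at most 0.0262, and no family gene was called lower in any. With 1 library left out, the log2 fold change of E2F7 ran from -0.21, without 501Mel replicate 1, to 0.85, and that of RB1 from -0.046, without 501Mel replicate 1, to 0.23. RB1 also changed sign without Hermes 3A replicate 2, to -0.00398, and of these values E2F7 at 0.85 alone passed the test. The cause was not tested. With 1 library left out the genes called higher numbered 2871 to 4595 and those called lower 3233 to 4687, and the calls among cyclins and kinases 2 to 4. Where a 501Mel library is left out, the lone sample is assumed to vary like the others, and fewer samples enter the fit. Leaving out a library gave 6 or 7 family genes called higher. DESeq2 called 4341 genes higher and 4726 lower, library totals alone 4704 and 4069, and a minimum of 10 counts in every library 3338 and 3119, from fewer genes tested. Other scalings moved the median of all genes by at most 0.06 on the log2 scale.

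Replicate numbers are shared between the lines, but the labels name no shared batch. The same-numbered libraries correlated in their deviations by 0.104 and 0.121, in only 2 pairs. With 2 libraries the 501Mel deviations mirror each other, so these values cannot tell whether a batch was shared. With the replicate block RBL2 passed the test (log2 fold change 0.68, adjusted p = 0.0422 in edgeR), 7 family genes were called, and 3641 genes were higher and 3855 lower.

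Levels and shares per kb depend on the length. The median transcript length moved 28 of them by more than the replicate SD, the longest transcript length 16 and library totals 1. E2F8 in Hermes 3A rests on 10 to 23 counts, which limits its fold to the interval given.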
